A study of Moesziomyces aphidis with 9 samples.

Results

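The 81 genes described here were abundant transcripts of the fungus Moesziomyces aphidis whose levels were 2 to 4 times higher when soybean oil was added to a glucose medium. They made up 1.17% of the 6952 genes in the files and 7.72% of the 1049 genes whose mean reached 100 RPKM (reads per kilobase of gene, scaled to library depth). They were chosen from the 6 libraries of 50 bp unstranded reads. A gene entered if its 6 values averaged 100 RPKM or more, if the log2 ratio of the medium means (1 RPKM added to each) was at least 1 and under 2, and if its lowest oil value exceeded its highest glucose value. Of 84 such genes, 3 were dropped because they lay in runs of 3 or more consecutive gene numbers that all rose. The choice used the oil and glucose values themselves, so these values are given below as a description and carry no test.

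The study compared gene expression on 2 carbon sources alongside an annotation of transcripts. All cultures of strain DSM70725 ran for 114 h, at 30 °C, and all contained yeast extract and 40 g/l glucose. The glucose group had nothing further, is labelled as not induced and held blastospores. The soybean oil group also received 70 g/l soybean oil, is labelled as induced and held filaments, so that oil and cell form changed together. Each group had 3 libraries. One stranded library per medium carries the number of replicate 1, and one paired-end library of 95 bp reads carries the number of soybean oil replicate 2. The labels do not say whether replicates came from separate cultures.

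Moesziomyces aphidis is a yeast-like relative of the smut fungi that secretes mannosylerythritol lipids, glycolipid surfactants built from a sugar alcohol and sugar head and fatty acid chains. Fungi that are fed plant oil cut it with secreted lipases, take up the fatty acids, and shorten them by beta-oxidation. The acetyl-CoA formed enters the citric acid and glyoxylate cycles, and shortened chains can be built into the glycolipid. This is background: the files give gene numbers without names or products, so none of the 81 genes can be assigned to these pathways here. For that reason 2 genes are given by identifier, the most abundant one and the one with the largest change, and all others by the rank of their mean RPKM over the 6 libraries, with rank 1 the highest.

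The 6 libraries held 8108888 to 11100455 reads, worked out from the RPKM values, and 97.2% to 98.1% of these lay in genes. The 81 genes had a median of 1568 reads on glucose and 4720 with oil, and 52 of them had at least 1000 reads in every library. The weakest value rested on 153 reads. Counting error was therefore small beside the spread between libraries: the median coefficient of variation was 12.3% on glucose and 10.4% with oil, where counting alone would give 2.53% and 1.46%. The spread exceeded counting error in all 81 genes on both media. All abundant genes together had median coefficients of 13.6% and 11.1%.

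Together the 81 genes took 2.53% ± 0.0153 of the summed RPKM on glucose and 6.42% ± 0.254 with oil (SD, n = 3). By library the share was 2.53%, 2.51% and 2.54% on glucose and 6.61%, 6.13% and 6.52% with oil. The glucose libraries were nearly equal, and soybean oil replicate 2 was the lowest of the oil libraries. RPKM is a share of each library, so more RNA per cell, more cells of one form and less RNA from other genes cannot be told apart.

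PaG_03296 was the most abundant of the 81. Its gene length, also worked out from the RPKM values, was 1637 bp. It stood at 769, 789 and 842 RPKM on glucose and at 1857, 1490.3 and 1847 RPKM with oil. The glucose values lay close together, soybean oil replicate 2 was the lowest of its medium, and the groups were apart by a factor of 1.77 between the lowest oil and the highest glucose value. The medium means were 800.2 ± 37.5 and 1732 ± 209 RPKM (SD, n = 3), a log2 ratio of 1.11. These values rested on many reads, 12542 in glucose replicate 1 and 30980 in soybean oil replicate 1.

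PaG_04886, of rank 43 by mean, had the largest change and lay just under the upper limit of the choice. Its length was 2012 bp. It stood at 77.1, 72.2 and 106 RPKM on glucose and at 351, 329 and 343 RPKM with oil. Glucose replicate 3 was the highest glucose library, and the oil libraries were nearly equal. The medium means were 85.0 ± 18.0 and 341 ± 11.2 RPKM (SD, n = 3), a log2 ratio of 1.99.

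Over all 81 genes the median level was 123 RPKM on glucose, with a range of medium means from 56.4 to 800.2. With oil the median was 330.4 RPKM and the range 135 to 1732. The log2 ratios ran from 1.01 to 1.99 with a median of 1.31, where the median over the 6486 genes averaging 1 RPKM or more was -0.07. Small changes were the most frequent: 56 genes had a log2 ratio from 1 to 1.5 and 25 one from 1.5 to 2. Level and size of change were nearly unrelated within the 81 genes (Spearman's rho 0.17 over genes, which share the same libraries). The median log2 ratio was 1.26 in the 36 genes with a mean under 200 RPKM, 1.35 in the 24 from 200 to 500 RPKM and 1.46 in the 19 from 500 to 1000 RPKM. In the 2 genes with a mean above 1000 RPKM it was 1.22, the lowest of these medians.

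**Figure D1:**
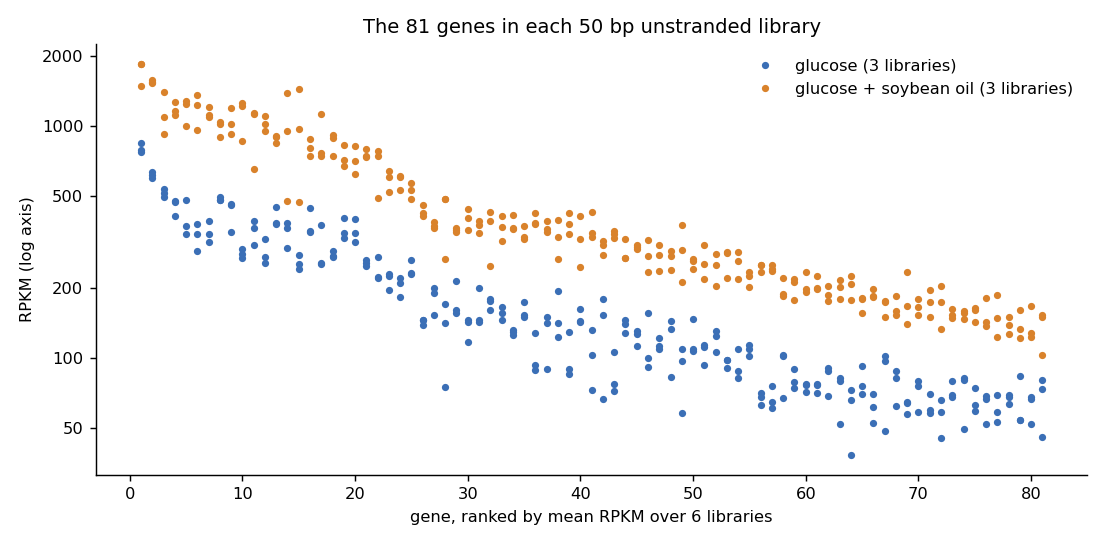
RPKM (log axis) of each of the 81 genes in the 3 glucose libraries (blue) and the 3 soybean oil libraries (orange), with genes ordered by their mean over the 6 libraries. The colours do not overlap within any gene, as the choice requires, and the lowest oil points of ranks 14 and 15 at 476 and 468 RPKM lie far under their other oil values.

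The second gene by mean, of rank 2, was the steadiest of the most abundant ones. It stood at 616, 595 and 635 RPKM on glucose and at 1546, 1524 and 1573 RPKM with oil. No library stood apart within either medium, and the lowest oil value was 2.40 times the highest glucose value. Rank 10 had the second largest change of the 81, a log2 ratio of 1.98. It stood at 269.9, 279 and 296 RPKM on glucose and at 863, 1221 and 1254 RPKM with oil, where soybean oil replicate 1 was the lowest.

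The limits of the choice cut through a continuous range. The gene with the lowest mean inside had 101 RPKM, and the nearest one outside had 99.8 RPKM with a log2 ratio of 1.67. The smallest log2 ratio inside was 1.01 and the nearest outside was 0.9957. In the range from 1 to 1.1 there were 16 of the 81 genes, and 22 further abundant genes without overlap had ratios from 0.9 to 1. At the upper limit the values were 1.99 inside and 2.08 outside. The narrowest gap was in the gene of rank 14, with 379.5 RPKM in the highest glucose library and 476 RPKM in the lowest oil library. Only 1 abundant gene in this range of change was left out because its groups overlapped.

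The choice also bears on how the 81 genes stand in the test over all genes. As background, 27.3% of the 6486 genes were higher with oil without overlap, and 12.3% of the 1049 abundant genes also reached 2-fold. With limma on log2(RPKM + 1), at an adjusted p under 0.05 and at least 2-fold, 430 of the 6486 genes (6.63%) were called higher. All 81 genes were among them, from which nothing is read, since the same values chose them. Their limma standard errors ran from 0.11 to 0.35 on the log2 scale with a median of 0.15. When the 95 bp values replaced the 50 bp ones for soybean oil replicate 2, limma called 47 of the 81 at least 2-fold higher, and 307 of all 6508 genes then tested. The other libraries in that fit also served the choice, so this count carries no test either.

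Among the glucose libraries, replicate 3 was the one most often lowest. It was the lowest glucose library in 39 genes and the highest in 30. Its value was under the mean of glucose replicates 1 and 2 in 44 genes (54.3%) and above it in 37, where 51.5% of all abundant genes were below. In 12 genes it was more than 1.5 times lower than that mean, and in 2 genes more than 1.5 times higher. The choice limits high values here, since a high glucose replicate 3 raises the glucose value that the oil libraries must exceed. Apart from the share below the mean, these counts were not made over all abundant genes. The widest case was the gene of rank 42, at 179, 153 and 66.4 RPKM on glucose and at 320.1, 278 and 305 RPKM with oil. Glucose replicate 3 fell away from the other glucose libraries in the direction opposite to the oil values. Rank 28 also had its lowest glucose value in replicate 3, with 142, 170.3 and 74.7 RPKM on glucose and 267, 482 and 482 RPKM with oil. In the other direction stood the gene of rank 46, at 90.9, 99.4 and 156 RPKM on glucose and 276, 323 and 233 RPKM with oil. Here glucose replicate 3 lay nearer to the oil libraries, and it was also the longest gene of the 81 at 12713 bp, where the next longest had 4018 bp.

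**Figure D2:**
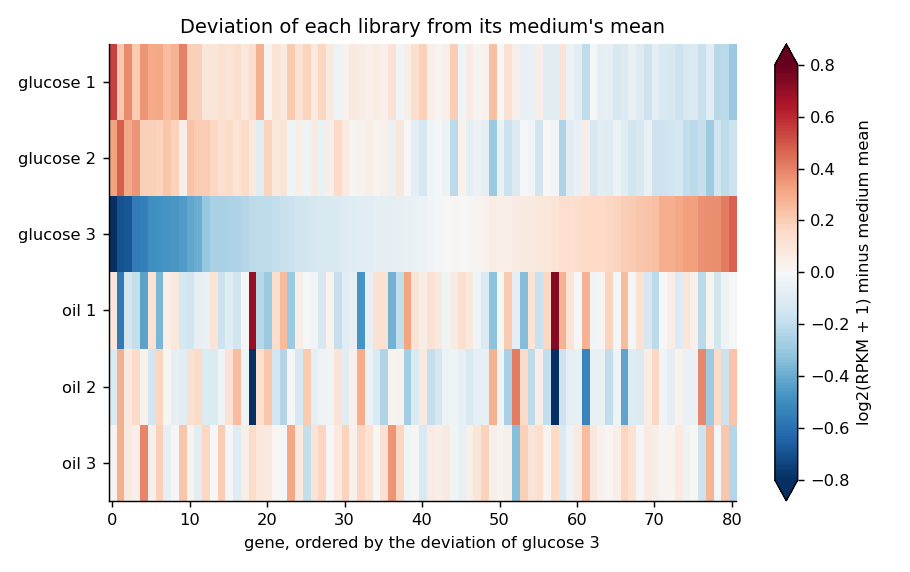
Deviation of log2(RPKM + 1) from the mean of its own medium for the 81 genes (columns, ordered by glucose replicate 3) in the 6 libraries (rows), with colours capped at 0.8 in either direction. Glucose replicate 3 passes from low to high because the genes are ordered by it. Glucose replicates 1 and 2 together do the reverse by construction, since the deviations are taken from the mean of all 3. In the oil rows a few genes have replicate 1 high and replicate 2 low.

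Among the oil libraries, replicate 2 was the lowest in 45 genes, replicate 1 in 30 and replicate 3 in 6. These counts were not made over all abundant genes, so whether the split is particular to the chosen genes was not tested. The choice also bears on it, since the lowest oil value had to exceed every glucose value. The oil coefficient of variation was above 25% in 8 genes, and it was largest in a pair with nearly the same oil values. The gene of rank 15 stood at 242, 254 and 277 RPKM on glucose and at 1446, 468 and 974 RPKM with oil. Rank 14 stood at 379.5, 362 and 298 RPKM on glucose and at 1390.5, 476 and 948 RPKM with oil. In both, soybean oil replicate 1 was about as far above replicate 3 as replicate 3 was above replicate 2, and the glucose libraries showed no such spread. The coefficients of variation with oil were 50.8% and 48.7%. Rank 11 had a similar dip in replicate 2, with 1142, 654 and 1120.0 RPKM with oil against 305, 364 and 390.0 RPKM on glucose, and so had the gene of rank 22, with 783, 491 and 741 RPKM with oil against 220.0, 223 and 272 RPKM on glucose. These 4 genes were the only ones in which replicate 2 was more than 1.5 times lower than the mean of the other oil libraries. They were picked out after their values were seen.

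The profiles over the 6 libraries were alike in most of the 81 genes, as a shared step between media makes them. PaG_03296 had a median Pearson correlation of 0.96 with the other genes, and was most like the gene of rank 33 (0.997). PaG_04886 had a median of 0.96 and was most like the gene of rank 36 (0.9994). That gene stood at 93.0, 88.6 and 128 RPKM on glucose and at 422, 379 and 382 RPKM with oil, with glucose replicate 3 the highest glucose library in both.

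The stranded libraries were made with another kit and were not used in the choice, although they carry the number of replicate 1, whose unstranded libraries were. With 1 library per medium they give values and no test. Of the 81 genes, 77 (95.1%) were higher with oil in this pair, where 47.8% of the abundant genes were. At least 2-fold higher values were found for 34 of the 81 (42.0%), against 11.4% of the abundant genes. The log2 ratio of the deposited values ran from -0.15 to 2.68 with a median of 0.91, and the median over abundant genes was -0.04. In the unstranded pair of replicate 1 the median of the 81 genes was 1.27, and 66 of them reached 2-fold. Both libraries of that pair served the choice, so these values carry no test. The median over abundant genes in it was 0.05, and their share at 2-fold was not counted. The stranded ratio was the smaller one in 68 of the 81 genes (84.0%), and in 65.6% of the abundant genes. Over all 6486 genes the median stranded ratio was -0.35, so the count depends on the centre taken: 60 of the 81 genes were at least 2-fold higher relative to that median, and 36 relative to the median of the abundant genes. Both centres are negative, so more genes of any group pass, and the share of abundant genes passing was not recounted. A single gene took 22.6% of the summed RPKM in the stranded glucose library and 17.2% in the stranded oil library, against 1.66% to 1.98% for the highest gene of any other library.

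PaG_03296 was listed at 677 RPKM on glucose and 1397 RPKM with oil in the stranded pair, a log2 ratio of 1.04. PaG_04886 was listed at 75.7 and 257 RPKM, a log2 ratio of 1.76. The largest stranded ratios belonged to genes with a dip in soybean oil replicate 2: the gene of rank 15 was listed at 252 and 1612 RPKM, a log2 ratio of 2.68. Rank 22 was listed at 9.69 and 48.6 RPKM, a ratio of 2.32, at levels far under those of its unstranded libraries. The genes of ranks 11 and 14 followed, with ratios of 2.21 and 2.01, and no other gene of the 81 reached 4-fold in the stranded pair. Replicate 1 was the highest oil library in all 4, and the stranded libraries carry that number.

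In 4 of the 81 genes (4.94%) the stranded value was lower with oil, where this held for 52.2% of the abundant genes. The gene of rank 45 was listed at 153 RPKM on glucose and 147 RPKM with oil, while its unstranded libraries stood at 130, 127 and 113 RPKM and at 306, 293 and 300.1 RPKM. The other 3, of ranks 32, 67 and 77, had stranded log2 ratios of -0.14, -0.15 and -0.10. In these 3 the unstranded ratio of replicate 1 was also small, from 0.47 to 0.83. Relative to the median of all genes, which is negative, all 81 were higher with oil in the stranded pair. The share of abundant genes above that median was not counted.

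**Figure D3:**
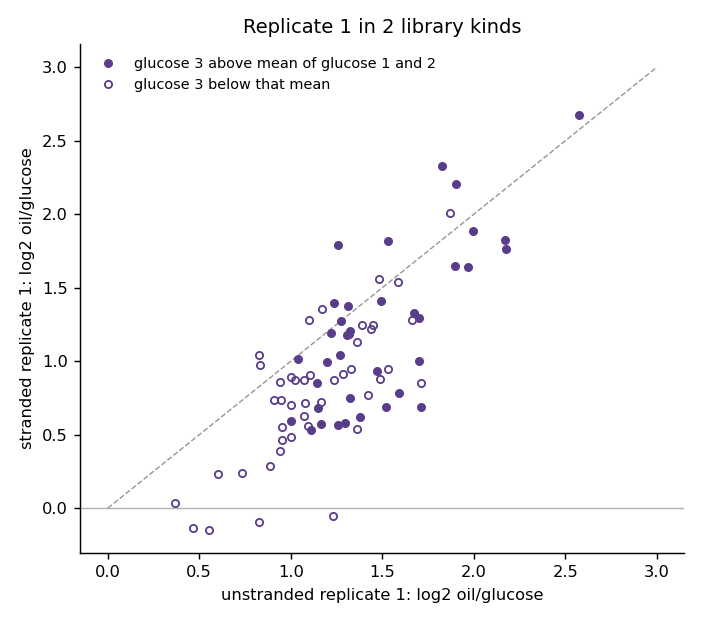
Log2 ratio of oil to glucose in the stranded pair (vertical axis) against the unstranded pair of replicate 1 (horizontal axis) for the 81 genes, with a dashed line of equality. Most points lie under the line, 4 lie under 0, and genes in which glucose replicate 3 exceeded the mean of the other glucose libraries (filled) overlap widely with the others (open), with higher medians on both axes (1.33 and 1.19 against 1.09 and 0.86).

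The ratios of replicate 1 in both library kinds moved with the position of glucose replicate 3. In the 37 genes with glucose replicate 3 above the mean of the other glucose libraries the median log2 ratio was 1.19 in the stranded pair and 1.33 in the unstranded pair of replicate 1. In the 44 genes with it below, the medians were 0.86 and 1.09. At least 2-fold stranded changes were seen in 23 of the 37 and in 11 of the 44, and all 4 stranded decreases were among the 44. Both axes share replicate number 1, and where glucose replicate 3 is low the other glucose replicates average above their medium mean by construction, so the difference carries no test and its origin was not tested.

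The 95 bp library of soybean oil replicate 2 has no glucose counterpart of its kind and was set beside the 50 bp libraries. It held 31573726 reads. In 68 of the 81 genes (84.0%) it lay above the highest 50 bp glucose value, where 43.8% of the abundant genes did. In 32 (39.5%) it was at least 2-fold over the glucose mean, where 10.6% of the abundant genes were, and in 11 (13.6%) it was at or under the glucose mean, where 45.8% were. Against the 50 bp library of the same number it was lower in 57 genes (70.4%; 60% of the abundant genes), with a median log2 ratio of -0.38, a lowest of -2.83 and a highest of 2.42. The median over abundant genes was -0.15. A difference of at least 2-fold downward was found in 18 of the 81 genes (22.2%; 11.3% of the abundant genes), and upward in 4 (4.94%; 7.72%). The genes were chosen in part for high values in the 50 bp library, which lowers this ratio by construction. The glucose values served the choice as well, which favours genes low on glucose, so the comparisons with glucose carry no test.

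PaG_03296 was at 770.1 RPKM in the 95 bp library, under its glucose mean of 800.2 RPKM and with a log2 ratio of -0.95 to the 50 bp library of that number. PaG_04886 was at 116 RPKM, above its glucose mean of 85.0 RPKM but far under the 329 RPKM of the 50 bp library. The gene of rank 15 was at 174 RPKM and the gene of rank 14 at 151 RPKM, both under all 3 of their glucose values, and the gene of rank 11, at 266 RPKM, was as well. The fourth gene with a dip in replicate 2, of rank 22, went the other way, with 1194 RPKM against 491 RPKM in the 50 bp library. The greatest excess was in the gene of rank 72, a short gene of 374 bp, with 1098 RPKM against 133, 204 and 174 RPKM in the 50 bp oil libraries. The lowest ratio to glucose was in the gene of rank 60, at 30.6 RPKM against a glucose mean of 74.8.

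**Figure D4:**
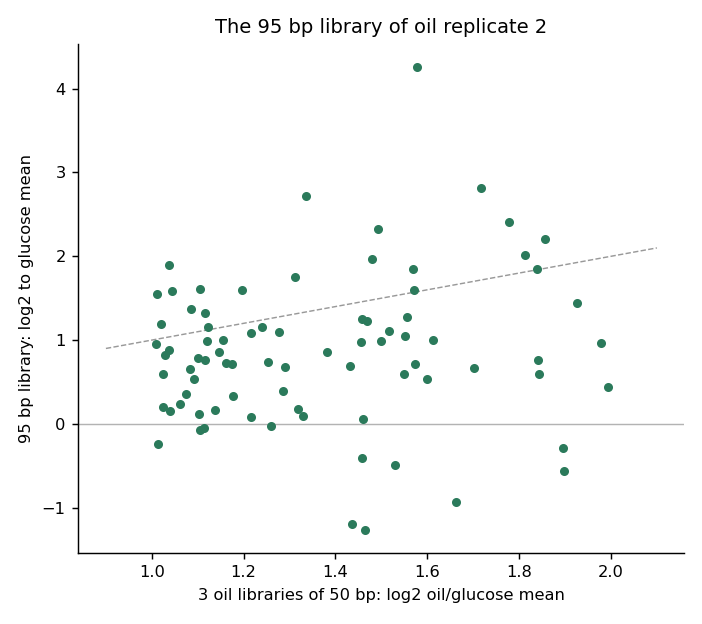
Log2 ratio of the 95 bp library to the glucose mean (vertical axis) against the log2 ratio of the 3 oil libraries of 50 bp to the same mean (horizontal axis) for the 81 genes, with 1 RPKM added and a dashed line of equality. Of the 81 points 11 lie at or under 0, and the ratios spread from -1.26 to 4.26 while those on the horizontal axis lie between 1 and 2.

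Gene length was no criterion of the choice. The median length of the 81 genes was 1424 bp (quartiles 1007 and 1899), between the 1342 bp of all abundant genes and the 1702 bp of the 6486 genes tested. Under 500 bp lay 7 of the 81, and 10 were 2500 bp or longer. The median log2 ratio of the 95 bp library to the 50 bp library was 0.11 in the 7 shortest genes, -0.73 in the 13 from 500 to 1000 bp, -0.32 in the 24 from 1000 to 1500 bp, -0.38 in the 27 from 1500 to 2500 bp and -0.60 in the 10 longest. The corresponding medians of abundant genes were 0.09, -0.11, -0.16, -0.19 and -0.22.

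Numbers of 10000 or more, a separate series of identifiers, were carried by 12 of the 81 genes (14.8%), against 13.7% of the abundant genes. No 2 of the 81 genes had consecutive numbers, and the closest ones, in 2 pairs, differed by 2. In 76 genes neither neighbour rose, and in 5 exactly 1 neighbour did, which the removal of runs partly fixes. Neighbours were counted for each of the 81 genes, so a neighbour lying between the genes of such a pair could enter for both. The 138 neighbours so counted that averaged 1 RPKM or more had a median log2 ratio of 0.04. Of these neighbours 5 (3.62%) had a log2 ratio of at least 1 and 20 (14.5%) one of -1 or lower, where 6.63% and 12.3% of all 6486 genes did.

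The 81 genes were also set beside 2 groups of abundant genes chosen in a like manner. With the rule turned around, 50 abundant genes were 2 to 4 times lower with oil. Their median length was 1959 bp, and 49 of them were lower in the stranded pair. Their median log2 ratio was -1.41 in the stranded pair, -1.37 in the unstranded pair of replicate 1 and -1.26 in the 6 libraries. In the 81 raised genes these medians were 0.91, 1.27 and 1.31. All abundant genes together also lay lower in the stranded pair, with medians of -0.04, 0.05 and 0.17. The 35 abundant genes that rose at least 4-fold without overlap or runs had a median log2 ratio of 2.63, and 2.36 in the stranded pair. In the 95 bp library 19 of these 35 (54.3%) were at least 2-fold under the matching 50 bp library, against 18 of the 81 (22.2%) and 9 of the 50 lowered genes (18%). At least 2-fold over it were 0 of the 35, 4 of the 81 and 15 of the 50 (30%). These groups share the same libraries, and the differences between them were not tested.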

How the data were processed

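The RPKM values were deposited by the authors, 1 file per library; reads were aligned with TopHat 1.4.1 per the submitters' processing notes, while the counting tool and the annotation are not given, nor is a genome build, in the sources used here. RPKM values of the 7 unstranded libraries were ratios of whole numbers, which gave each gene's reads and length and each library's total (6952 of 6952 genes whole within 1e-05 read; the procedure was tested on simulated data). Stranded values have 2 decimals and none under 1, so 1 appears to have been added to each; ratios use the deposited values. The depth of the stranded libraries is unknown. Junction lists were not used, since they are not linked to gene numbers.

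The members and lists were chosen with earlier results of these data known. limma 3.58.1 in R 4.3.3 was fitted on log2(RPKM + 1) to the 6486 genes averaging 1 RPKM or more, with an intensity trend and Benjamini-Hochberg adjustment. Alternatives were a pseudocount of 0.1, median-ratio scaling, quantile normalization, leaving out each library, no filter, and the replicate number as a block. P-values measure only the spread between these samples, which may be technical. Genes to be printed by identifier were the member of highest mean and that of highest change, because no source here pairs identifiers with names; the planned lists of pathway genes could therefore not be applied. Other genes given by rank were chosen after their values were seen.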

Additional observations from a re-analysis of the deposited data

Results flagged for a closer look

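Among the 81 genes, 4 (4.94%) were lower with oil in the stranded pair of replicate 1, where 52.2% of the abundant genes were. The log2 ratios of these 4 went down to -0.15. The choice required each to be higher in all 3 unstranded oil libraries than in any glucose library. The difference between the library kinds was not tested, with 1 stranded library per medium.

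In 11 of the 81 genes (13.6%) the 95 bp library of soybean oil replicate 2 was at or under the 50 bp glucose mean. This held for 45.8% of the abundant genes. The log2 ratios of these 11 went down to -1.26, while the choice required all 3 oil libraries of 50 bp to be above every glucose library. The difference was not tested either, with a single 95 bp library.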

How the results depend on the processing

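The rule found 81 genes as stated, 71 to 98 with 1 library left out, 139 when the mean had to reach 50 RPKM and 45 when it had to reach 200 RPKM. Of the 81, the rule kept 77, 75 and 66 without glucose replicates 1, 2 and 3, and 72, 67 and 67 without soybean oil replicates 1, 2 and 3; 46 were kept in each of these cases. It kept 79 after median-ratio scaling, 56 after quantile normalization and 53 when 95 bp values replaced the 50 bp ones of soybean oil replicate 2. All 81 stayed higher with oil under each of these, which the choice fixes in advance where a library was left out. Their median log2 ratio ran from 1.30 to 1.36 with 1 library left out. The same values chose the genes, so this carries no test. By recovered reads, the share with oil was 6.11% in place of 6.42% of summed RPKM, since genes are then weighted by length; with 1 library left out it was 6.33% to 6.57%. Stranded ratios centred on the median of all genes, an alternative chosen after seeing the data, put 60 genes in place of 34 at 2-fold. The share of abundant genes was not recounted with that centre. limma called 430 genes at least 2-fold higher and 790 lower (410 to 464 higher with 1 library left out); the split was 513 and 575 after quantile normalization, when 60 of the 81 were called, and 307 and 240 with the 95 bp library. Planned count models were fitted to the reads recovered from the RPKM values, and both called more genes at least 2-fold higher than limma did. Nothing is read from how they called the 81 genes, since the same values chose these. No counts are given, because count models on reads recovered from RPKM were outside the checks applied to these results. Correlations of same-numbered deviations were -0.19, 0.23 and 0.05 over 6486 genes. They cannot show whether libraries of the same number shared a culture or batch. With the number as a replicate block limma called 430 higher and 787 lower. All 81 were again among the higher, from which nothing is read, since the same values chose them.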
